A study of Mus with 9 samples.

Results

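The transcripts of 47 genes of the autophagy and mitophagy machinery were followed in mouse kidney, out of 54532 genes in the deposited table. The genes were taken from a list of names, and all 47 were found and passed the filter on low counts, so each was tested. Kidney RNA came from 9 C57BL/6 mice, all male. Each of the 3 groups had 3 mice, with 1 library per mouse. All mice had 1 kidney removed at the age of 18 months. The 18 mo group was killed 1 week after this surgery and received no injections. The 21 mo group was injected intraperitoneally with saline for 12 weeks after surgery, and the 21 mo/O304 group with O304 at 10 mg/kg per day over the same 12 weeks. O304 is a small molecule that activates AMPK, a kinase that senses low cellular energy. The 18 mo mice thus differed from both other groups in age, in time after surgery and in injections, which cannot be told apart. By design, O304 or saline was all that set the 21 mo/O304 group apart from the 21 mo group. The comparison of 21 mo/O304 with 21 mo addressed the AMPK activator, and that of 21 mo with 18 mo covered age together with the other differences.

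Autophagy encloses parts of the cytoplasm in a double membrane, the autophagosome, which fuses with the lysosome so that its contents are degraded. The ULK kinase complex starts the process, a lipid kinase complex around Beclin 1 marks the membrane, ATG9, ATG2 and WIPI proteins supply it with lipid, and a pair of conjugation systems of the ATG enzymes modifies it. Receptors such as p62 bring cargo to it, and PINK1, BNIP3, NIX and FUNDC1 mark mitochondria for removal, which is called mitophagy. AMPK promotes and mTORC1 restrains ULK1, while TFEB and TFE3 drive transcription of autophagy and lysosome genes. Tubule cells of the kidney are rich in mitochondria, and the proximal tubule relies on autophagy for their turnover. Much of this control acts on proteins by phosphorylation, lipidation and degradation, which RNA levels do not measure.

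The libraries held between 15636378 and 18396725 counts on genes. The spread between mice was unequal, with a biological coefficient of variation of 18.1% at 18 mo, 44.2% at 21 mo and 20.6% with O304. Markers of the nephron were detected in every library, with Lrp2 of the proximal tubule at 318 CPM or more (CPM is the count scaled to the TMM-normalized library size) and Umod of the thick limb at 1405 CPM or more. The summed level of 10 proximal tubule markers was 11982 to 15237 CPM at 18 mo and 12816 to 13984 CPM with O304. In replicates 1, 2 and 3 of the 21 mo group it was 12779, 6040 and 1606 CPM. The sum of 7 fibroblast markers in these 3 libraries was 132, 558 and 1324 CPM, against 161 to 245 CPM at 18 mo and 101 to 247 CPM with O304. The sum of 6 macrophage markers was 188 to 275 CPM at 18 mo, 371 to 1154 CPM at 21 mo and 279.7 to 288 CPM with O304. Of these markers, 3 of the 10 for proximal tubule were lower in every 21 mo than in every 18 mo library, beside 15.3% of all genes. By the same rule 1 of the 7 for fibroblasts and 5 of the 6 for macrophages were higher, beside 13.5% of all genes. No marker of the proximal tubule, fibroblast and macrophage lists was at 0 in any library. The sum of 6 adipocyte markers was at most 8.60 CPM at 18 mo, at most 6.09 CPM at 21 mo and 149, 10.1 and 123 CPM with O304. The sum of 4 neutrophil markers was 4.56 to 10.03 CPM at 18 mo, 15.004 to 48.3 CPM at 21 mo and 8.05 to 17.3 CPM with O304. Of these 4 markers, 3 were higher in every 21 mo than in every 18 mo library, beside 13.5% of all genes. Mitochondrially encoded genes took 8.95% to 9.59% of counts at 18 mo, 11.6%, 9.66% and 6.59% in replicates 1, 2 and 3 at 21 mo and 9.53% to 10.8% with O304. Across genes, the Spearman correlation of the difference from the 18 mo mean with gene length was 0.117, 0.186 and 0.0201 in the 21 mo replicates and −0.0499 to 0.145 with O304. The part of these cell type markers and library properties in the differences below was not tested. In whole kidney, fewer cells of a type and less RNA per cell cannot be told apart.

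**Figure D1:**
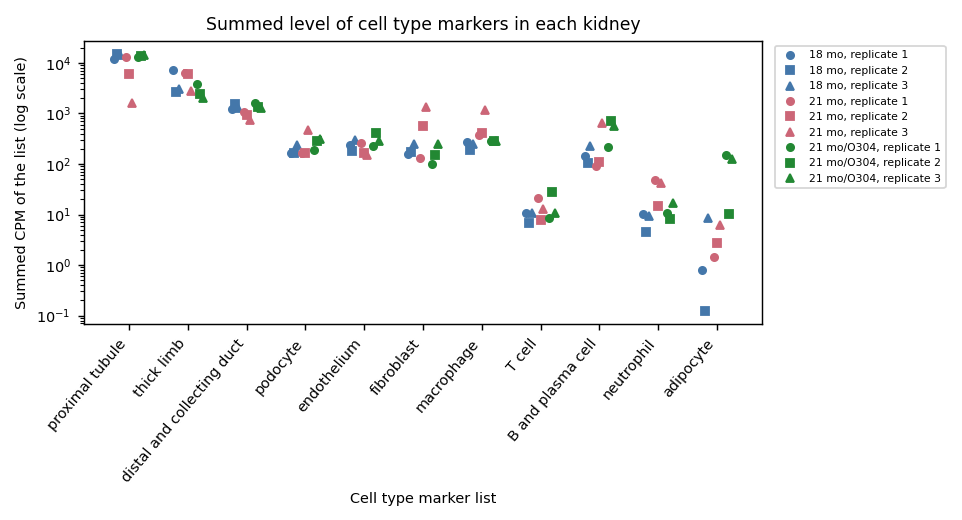
Summed CPM of each cell type marker list (log scale) in each of the 9 libraries, colored by group and shaped by replicate number. Replicates 2 and 3 of the 21 mo group lie below all other libraries for proximal tubule markers (6040 and 1606 CPM) and above them for fibroblast markers (558 and 1324 CPM).

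Levels were compared between genes on FPKM, which divides by gene length. In the 18 mo group the lowest of the 47 genes was Rubcnl at 0.221 FPKM, and the median was 8.85 FPKM. A level of at least 100 FPKM was reached by 5 genes, among them the p62 gene Sqstm1 at 201 FPKM and Pink1 at 136 FPKM. The cargo receptor and the mitophagy kinase were thus abundant, while the enzymes and scaffolds that act earlier lay lower. Among initiation genes the 18 mo means ran from 3.68 FPKM for Rb1cc1 to 16.4 FPKM for Atg101, and among the ATG4 proteases from 4.91 FPKM for Atg4b to 9.26 FPKM for Atg4a. Only Rubcnl and Atg16l2, at 0.659 FPKM, were under 1 FPKM.

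**Figure D2:**
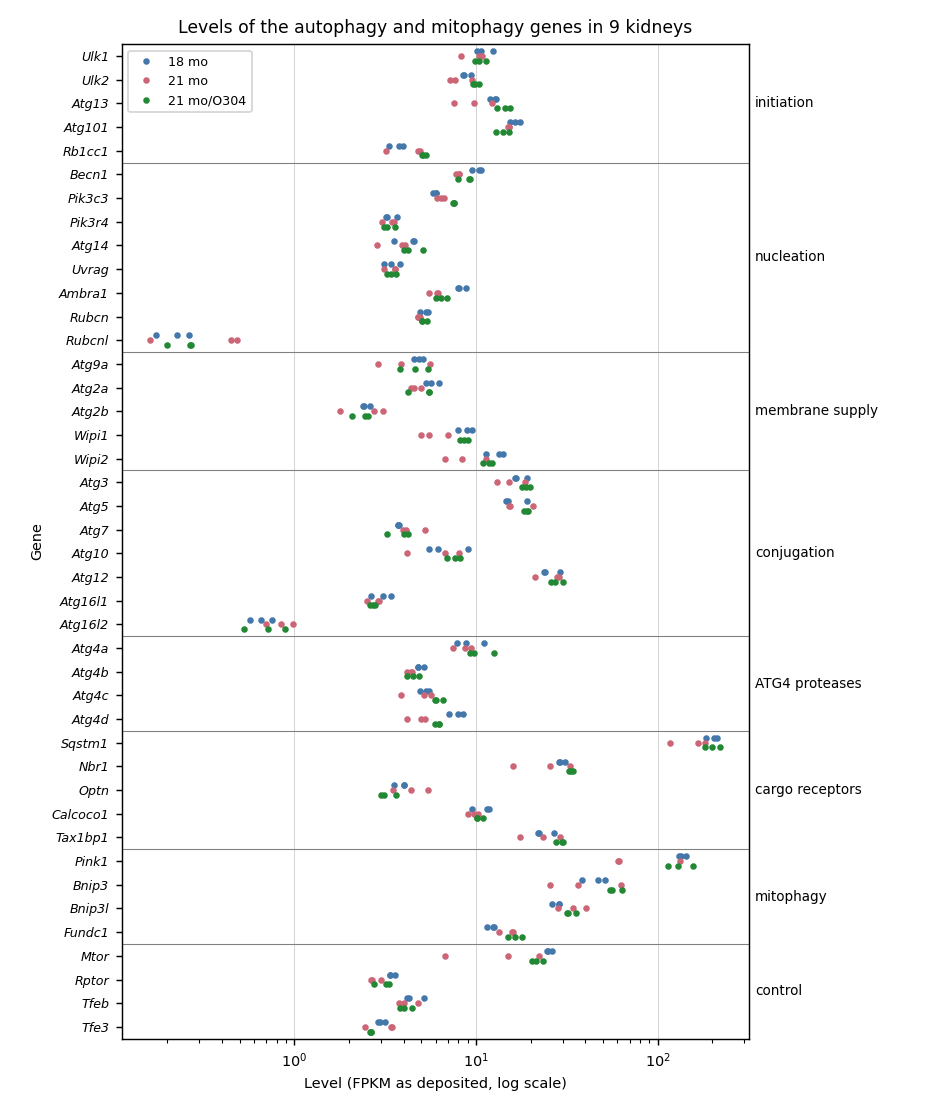
Deposited FPKM of 42 of the 47 genes (log scale), with 1 point per library, colored by group and ordered by role. Of the genes shown Sqstm1 and Pink1 hold the highest levels, and Rubcnl and Atg16l2 the lowest.

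No gene of the machinery passed the adjusted threshold in any comparison, and the values leaned lower in 21 mo and higher with O304. In 21 mo against 18 mo, 33 of the 47 genes had a lower and 14 a higher fitted level, with a median log2 fold change of −0.12 beside 0.034 over all 15902 genes tested. With O304, 34 were fitted higher and 13 lower than in 21 mo, with a median of 0.14 beside −0.019 over all genes. Set against 18 mo, 23 were fitted higher and 24 lower in 21 mo/O304, with a median of −0.0018 beside 0.0028 over all genes. Of all genes, 7515 were fitted lower and 8387 higher in the first comparison. In the second 7668 were higher and 8234 lower, and in the third 8017 higher and 7885 lower. Counts by fitted sign here and in the groups below come from the same libraries, so the genes are not independent observations. The first and second comparisons share the 21 mo libraries, so opposite leanings are not independent of each other. With an adjusted p under 0.05 (edgeR's quasi-likelihood test, Benjamini-Hochberg) taken as a call, 0 of the 47 were called in each comparison, where the share of all genes called was 0.0189% in 21 mo against 18 mo and 0.00% in both others. A single comparison of 3 mice against 3 cannot give an exact permutation p under 0.1, so no such test is listed for single genes.

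By an unadjusted edgeR p under 0.05, 8 genes were lower and 1 higher in 21 mo than in 18 mo. Among the lower genes were Becn1, Ambra1, Atg2a, Wipi1, Wipi2, Atg4d and Rptor, and the higher gene was Fundc1. Of all 15902 genes 26.1% had such a p, with 1913 lower and 2234 higher. With O304, 7 genes were higher than in 21 mo (among them Ulk2, Atg13, Pik3c3, Wipi1 and Atg4d) and Optn was lower. Of all genes 20.7% had such a p there, with 1974 lower and 1315 higher. Set against 18 mo, Rb1cc1, Pik3c3 and Fundc1 were higher in 21 mo/O304 and 3 genes lower, among them Ambra1 and Atg4d. Of all genes 9.66% had such a p in that comparison, with 848 lower and 688 higher. The members with such a p were 9, 8 and 6 of 47 in the 3 comparisons. In 21 mo against 18 mo, 17.0% of the members were lower and 2.13% higher, beside 12.03% and 14.05% of all genes. In 21 mo/O304 against 21 mo, 14.9% were higher and 2.13% lower, beside 8.27% and 12.4%. For 21 mo/O304 against 18 mo it was 6.38% each way, beside 4.33% higher and 5.33% lower. The first and second of these splits rest on the same 21 mo libraries, whose spread was widest, so they are not taken as a result about the members.

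The groups did not overlap in CPM for 13 genes that were lower and 4 that were higher in 21 mo than in 18 mo, or 27.7% and 8.51% of the members beside 15.3% and 13.5% of all genes. For 21 mo/O304 against 21 mo, 10 genes were higher without overlap and 0 were lower, beside 10.8% and 10.5% of all genes. For 21 mo/O304 against 18 mo, 11 genes were higher and 8 lower without overlap, beside 13.2% and 13.3% of all genes. The heatmap of single libraries shows where the leaning lay. The median of the 47 genes relative to the 18 mo mean was 0.044, −0.12 and −0.29 on the log2 scale in replicates 1, 2 and 3 of the 21 mo group, and −0.0089, 0.0074 and 0.090 in those of the 21 mo/O304 group. Below the lowest 18 mo library were 17, 26 and 32 of the 47 genes in the 21 mo replicates, or 36.2%, 55.3% and 68.1%, while 33.4%, 36.1% and 40.5% of all genes tested lay so. Above the highest were 19, 10 and 9, or 40.4%, 21.3% and 19.1%, beside 31.1%, 37.3% and 41.3% of all genes. In the 21 mo/O304 replicates 23.4%, 34.0% and 31.9% of the members lay below, beside 30.4%, 32.5% and 31.3% of all genes. There 31.9%, 36.2% and 42.6% lay above, beside 30.0%, 32.3% and 31.7%. Replicate 3 had the lowest and replicate 1 the highest summed level of proximal tubule markers in that group.

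**Figure D3:**
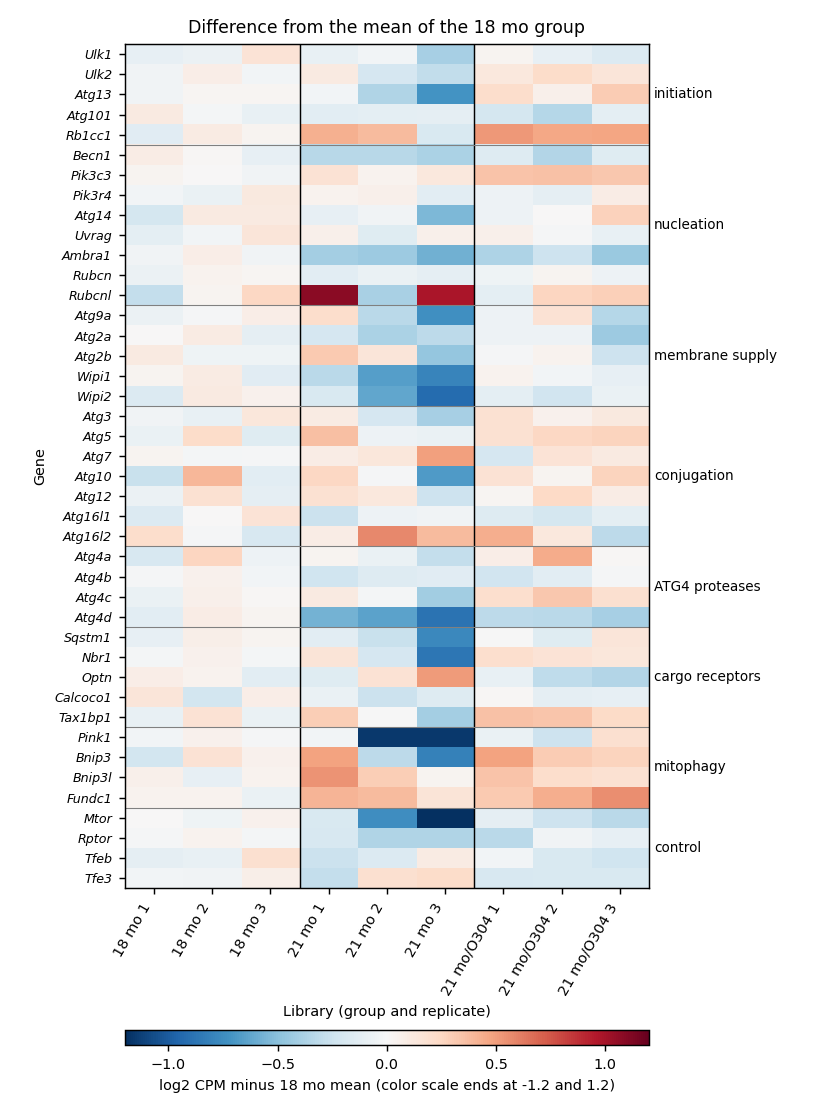
Difference of log2 CPM from the 18 mo mean for 42 of the 47 genes (rows, by role) in each library (columns), with the color scale ending at −1.2 and 1.2. Blue is most frequent in replicates 2 and 3 of the 21 mo group, where 26 and 32 of the 47 genes lay below the 18 mo range.

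How many genes were called depended on the model and on 1 library. DESeq2 called 0 genes higher and 5 lower in 21 mo against 18 mo, among them Becn1, Ambra1, Wipi1 and Atg4d, beside 6.60% and 5.14% of all genes. It called 2 genes, among them Wipi1, higher in 21 mo/O304 against 21 mo, with 0 lower, beside 1.55% and 3.65% of all genes, and 0 genes in 21 mo/O304 against 18 mo, beside 0.286% higher and 0.499% lower. The limma voom fit with sample quality weights called 5 genes higher and 18 lower in 21 mo against 18 mo, beside 26.3% and 26.6% of all genes, and 16 higher and 2 lower in 21 mo/O304 against 21 mo, beside 21.2% and 19.8%. It called Rb1cc1, Pik3c3 and Fundc1 higher and Atg4d lower in 21 mo/O304 against 18 mo, beside 1.04% and 1.57% of all genes. That fit gave replicate 2 of the 21 mo group a weight of 9.11 and replicates 1 and 3 weights of 0.223 and 0.132, and voom without these weights called 0 of the 47 genes, beside 0.00629% of all genes in 21 mo against 18 mo and 0.00% in both other comparisons. Without replicate 1 of the 21 mo group, edgeR called 9 genes lower in 21 mo against 18 mo (among them Atg13, Ambra1, Wipi1, Wipi2, Atg4d, Pink1 and Mtor), while 4186 genes of the whole table passed. In the same fit 12 genes were called higher in 21 mo/O304 against 21 mo (among them Ulk2, Atg13, Wipi1, Wipi2, Atg3, Atg4d, Nbr1, Pink1, Bnip3 and Mtor) and Optn and Tfe3 lower, with 3808 genes in all. Without replicate 3, Atg4d was among 2 members called lower in 21 mo against 18 mo among 130 genes in all. The totals of 4186, 3808 and 130 genes count both directions, beside 15902 genes tested in the main fit. Shares of all genes by direction are not given for these fits, so their member counts are not a result about the members.

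**Figure D4:**
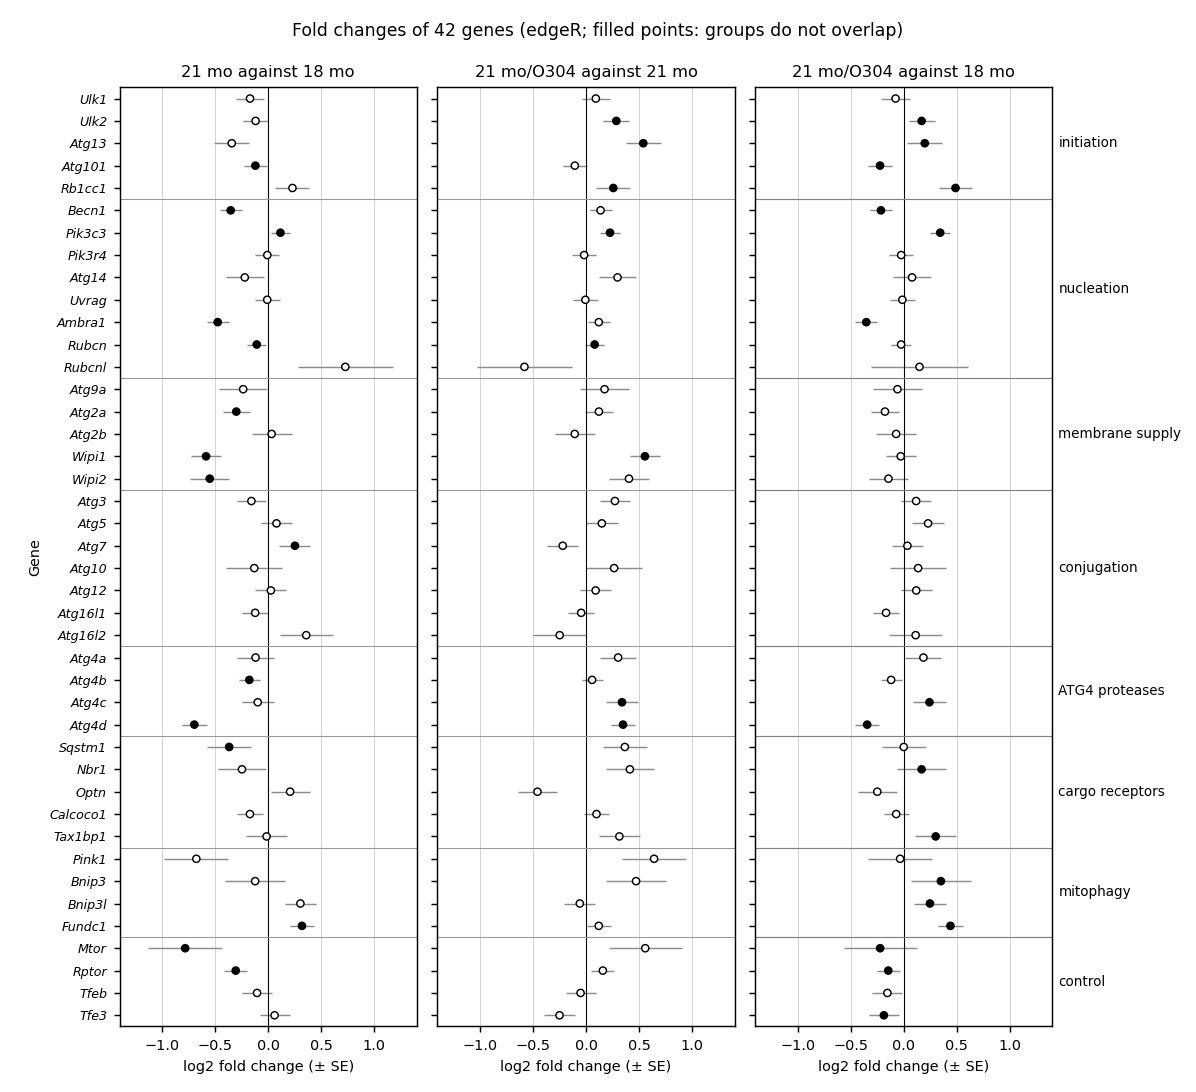
Log2 fold change of 42 of the 47 genes (edgeR, bars are ± SE) in the 3 comparisons, ordered by role, with filled points where the groups do not overlap in CPM. Of the genes shown, Mtor and Atg4d lie farthest to the left in 21 mo against 18 mo (−0.78 and −0.70), and Pink1 farthest to the right in 21 mo/O304 against 21 mo (0.64).

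Of the 5 genes of the ULK complex, 4 were fitted lower in 21 mo than in 18 mo and 4 higher in 21 mo/O304 than in 21 mo. Atg13, which encodes the regulatory subunit that mTORC1 phosphorylates, was at 54.6, 57.2 and 57.1 CPM in the 18 mo libraries, at 55.1, 43.9 and 34.2 CPM in the 21 mo libraries and at 65.1, 58.8 and 69.5 CPM in the 21 mo/O304 libraries. Replicate 1 of the 21 mo group lay within the 18 mo range and replicates 2 and 3 lay below it, while the 21 mo/O304 libraries lay above all others. In edgeR, Atg13 had log2 fold changes of −0.34 in 21 mo against 18 mo (SE 0.16, adjusted p = 0.220) and 0.54 in 21 mo/O304 against 21 mo (SE 0.16, adjusted p = 0.176). Atg13 stood at 0.20 (SE 0.16, adjusted p = 0.746) in 21 mo/O304 against 18 mo by the same test. Rb1cc1, which encodes the scaffold FIP200, was at 50.7, 59.6 and 56.7 CPM in the 18 mo libraries, at 74.5, 72.3 and 49.1 CPM in the 21 mo libraries and at 80.0, 76.7 and 77.2 CPM in the 21 mo/O304 libraries. The 21 mo/O304 libraries were higher than all 18 mo and 21 mo libraries, and replicate 3 of the 21 mo group was the lowest of the 9. The edgeR log2 fold changes of Rb1cc1 were 0.23 in 21 mo against 18 mo (SE 0.16, adjusted p = 0.383) and 0.26 in 21 mo/O304 against 21 mo (SE 0.16, adjusted p = 0.360). Rb1cc1 stood at 0.49 (SE 0.16, adjusted p = 0.402) in 21 mo/O304 against 18 mo by the same test. The kinase genes Ulk1 and Ulk2 had values of −0.17 and −0.12 in 21 mo against 18 mo and 0.092 and 0.29 in 21 mo/O304 against 21 mo. Ulk2 was at 50.2 ± 7.61 CPM in the 21 mo and 61.2 ± 2.11 CPM in the 21 mo/O304 group (SD, n = 3 each), without overlap, and its unadjusted p was 0.0434 and its adjusted p 0.233 in edgeR. Atg101, which encodes the partner of ATG13, was the exception, with −0.11 in 21 mo/O304 against 21 mo.

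Among the 8 genes of the Beclin 1 lipid kinase complexes and their regulators, Becn1 and Ambra1 were lower and Pik3c3 was higher in both older groups than in the 18 mo group. Becn1, which encodes Beclin 1, was at 78.7, 74.7 and 69.2 CPM in the 18 mo libraries, at 58.7, 58.7 and 57.0 CPM in the 21 mo libraries and at 66.6, 58.0 and 67.0 CPM in the 21 mo/O304 libraries. All 6 libraries of the older groups lay below the lowest 18 mo library, and the 21 mo and 21 mo/O304 groups overlapped. By edgeR the log2 fold changes of Becn1 were −0.35 in 21 mo against 18 mo (SE 0.10, adjusted p = 0.0908) and 0.14 in 21 mo/O304 against 21 mo (SE 0.10, adjusted p = 0.445). Becn1 stood at −0.22 (SE 0.10, adjusted p = 0.540) in 21 mo/O304 against 18 mo by the same test. Ambra1, which encodes a scaffold that binds Beclin 1 and stabilises ULK1, was at 50.8, 55.0 and 50.7 CPM in the 18 mo libraries, at 39.2, 38.6 and 34.9 CPM in the 21 mo libraries and at 40.4, 43.9 and 38.2 CPM in the 21 mo/O304 libraries. Again the 18 mo libraries were apart from the other 6, which overlapped each other. Ambra1 had edgeR log2 fold changes of −0.48 in 21 mo against 18 mo (SE 0.10, adjusted p = 0.0631) and 0.12 in 21 mo/O304 against 21 mo (SE 0.10, adjusted p = 0.497). Ambra1 stood at −0.35 (SE 0.10, adjusted p = 0.345) in 21 mo/O304 against 18 mo by the same test. Pik3c3 encodes VPS34, the lipid kinase itself, and was at 28.1, 27.5 and 26.5 CPM in the 18 mo libraries, at 30.8, 28.2 and 29.9 CPM in the 21 mo libraries and at 34.8, 34.9 and 34.3 CPM in the 21 mo/O304 libraries. The 3 groups did not overlap, with 18 mo lowest and 21 mo/O304 highest, although neighbouring libraries of the 18 mo and 21 mo groups differed by less than 1 CPM. For Pik3c3 edgeR gave log2 fold changes of 0.12 in 21 mo against 18 mo (SE 0.09, adjusted p = 0.445) and 0.23 in 21 mo/O304 against 21 mo (SE 0.09, adjusted p = 0.223). Pik3c3 stood at 0.34 (SE 0.09, adjusted p = 0.343) in 21 mo/O304 against 18 mo by the same test.

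Of the other genes of these complexes, 0 had an unadjusted edgeR p under 0.05 in any comparison. Pik3r4, which encodes VPS15, and Uvrag, of the endosomal complex, had log2 fold changes between −0.026 and −0.0062 in the 3 comparisons. Atg14, which directs VPS34 to autophagosomes, had −0.22 in 21 mo against 18 mo and 0.30 in 21 mo/O304 against 21 mo, with replicate 3 of the 21 mo group at 12.7 CPM below all other libraries. Rubcn, which encodes the inhibitor Rubicon, had −0.11, 0.081 and −0.027 in the order of the 3 comparisons. Rubcnl was measured at 0.796 to 2.41 CPM only, so its value of 0.73 (SE 0.45) in 21 mo against 18 mo was uncertain, and it was −0.46 in voom with sample quality weights.

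In the membrane supply group 4 of 5 genes were fitted lower in 21 mo than in 18 mo, with the WIPI genes lowest. Wipi1, which encodes a protein that binds the lipid made by VPS34, was at 40.8, 42.8 and 36.3 CPM in the 18 mo libraries, at 31.9, 25.1 and 23.0 CPM in the 21 mo libraries and at 41.1, 39.0 and 37.2 CPM in the 21 mo/O304 libraries. Each 21 mo library was lower than the libraries of both other groups, which overlapped. Wipi1 had edgeR log2 fold changes of −0.59 in 21 mo against 18 mo (SE 0.14, adjusted p = 0.0722) and 0.55 in 21 mo/O304 against 21 mo (SE 0.14, adjusted p = 0.175). Wipi1 stood at −0.030 (SE 0.14, adjusted p = 0.968) in 21 mo/O304 against 18 mo by the same test. Its group levels were 40.0 ± 3.36 CPM for 18 mo, 26.7 ± 4.67 CPM for 21 mo and 39.1 ± 1.94 CPM for 21 mo/O304 (mean ± SD, n = 3 each). Wipi2, which recruits ATG16L1 to the membrane, was at 125, 151 and 145 CPM in the 18 mo libraries, at 123, 90.8 and 73.6 CPM in the 21 mo libraries and at 129, 119 and 132 CPM in the 21 mo/O304 libraries. All 21 mo libraries lay below those of 18 mo, with the least difference for replicate 1, which overlapped the 21 mo/O304 group. Wipi2 had edgeR log2 fold changes of −0.55 in 21 mo against 18 mo (SE 0.18, adjusted p = 0.114) and 0.40 in 21 mo/O304 against 21 mo (SE 0.18, adjusted p = 0.252). Wipi2 stood at −0.15 (SE 0.18, adjusted p = 0.849) in 21 mo/O304 against 18 mo by the same test. The lipid transfer genes Atg2a and Atg2b had −0.30 and 0.033 in 21 mo against 18 mo, and Atg2a did not overlap between these groups. Atg9a, which encodes the lipid scramblase of the early membrane, was at 33.2, 22.8 and 17.2 CPM in the 21 mo replicates against 27.4 to 30.4 CPM in the 18 mo group, so the spread of the 21 mo group enclosed the 18 mo values.

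Of the 7 conjugation genes, 4 were fitted higher and 3 lower in 21 mo than in 18 mo, and 0 had an unadjusted p under 0.05 in any comparison. Their median log2 fold change was 0.026 in 21 mo against 18 mo, 0.091 in 21 mo/O304 against 21 mo and 0.11 in 21 mo/O304 against 18 mo. Atg7, which encodes the enzyme that activates ATG12, was at 27.5, 26.5 and 26.6 CPM in the 18 mo libraries, at 28.5, 29.6 and 37.9 CPM in the 21 mo libraries and at 23.3, 30.2 and 29.0 CPM in the 21 mo/O304 libraries. The 21 mo libraries were above the 18 mo libraries and the edgeR log2 fold changes of Atg7 were 0.25 in 21 mo against 18 mo (SE 0.15, adjusted p = 0.297) and −0.22 in 21 mo/O304 against 21 mo (SE 0.15, adjusted p = 0.389). Atg3, a conjugating enzyme gene, had −0.16 and 0.27 in the same comparisons, and Atg5 and Atg12, which form a conjugate with each other, had 0.079 and 0.026 in 21 mo against 18 mo. Atg16l1, which anchors that conjugate, had −0.12 in that comparison. Atg10 had −0.13 (SE 0.26) there, and Atg16l2, at only 0.659 FPKM in the 18 mo group, had 0.36 (SE 0.25).

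Of the ATG4 genes, which encode cysteine proteases of the conjugation systems, Atg4d had the largest difference. Atg4d, on chromosome 9 from 21265293 to 21277772 (GRCm38), was at 53.5, 62.4 and 59.8 CPM in the 18 mo libraries, at 39.5, 37.5 and 31.6 CPM in the 21 mo libraries and at 47.1, 46.7 and 44.3 CPM in the 21 mo/O304 libraries. The 3 groups were apart from each other, with 21 mo lowest, 21 mo/O304 between and 18 mo highest. Its levels were 58.6 ± 4.55 CPM for 18 mo, 36.2 ± 4.08 CPM for 21 mo and 46.0 ± 1.51 CPM for 21 mo/O304 (mean ± SD, n = 3 each). For Atg4d the edgeR log2 fold changes were −0.70 in 21 mo against 18 mo (SE 0.12, adjusted p = 0.0626) and 0.35 in 21 mo/O304 against 21 mo (SE 0.12, adjusted p = 0.182). Atg4d stood at −0.35 (SE 0.12, adjusted p = 0.407) in 21 mo/O304 against 18 mo by the same test. The difference between 21 mo and 18 mo passed the threshold without replicate 1 or without replicate 3 of the 21 mo group, and that between 21 mo/O304 and 21 mo without replicate 1. In 21 mo against 18 mo these fits passed 4186 and 130 genes of the whole table, and in 21 mo/O304 against 21 mo 3808 genes. No other fit that left out 1 library called Atg4d in either comparison. The other ATG4 genes differed less in 21 mo against 18 mo, with −0.12 for Atg4a, −0.18 for Atg4b and −0.10 for Atg4c. The ratio of Atg4d to Atg4b on FPKM was 1.48, 1.64 and 1.67 in the 18 mo libraries, 1.27, 1.14 and 0.946 in the 21 mo libraries and 1.501, 1.39 and 1.22 in the 21 mo/O304 libraries. In this ratio the 21 mo libraries lay below the 18 mo libraries, while replicate 3 of the 21 mo/O304 group lay among the 21 mo values. Thap4 overlaps Atg4b and had up to 1023 counts, against at least 530 for Atg4b, so reads of these 2 genes may be shared.

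**Figure D5:**
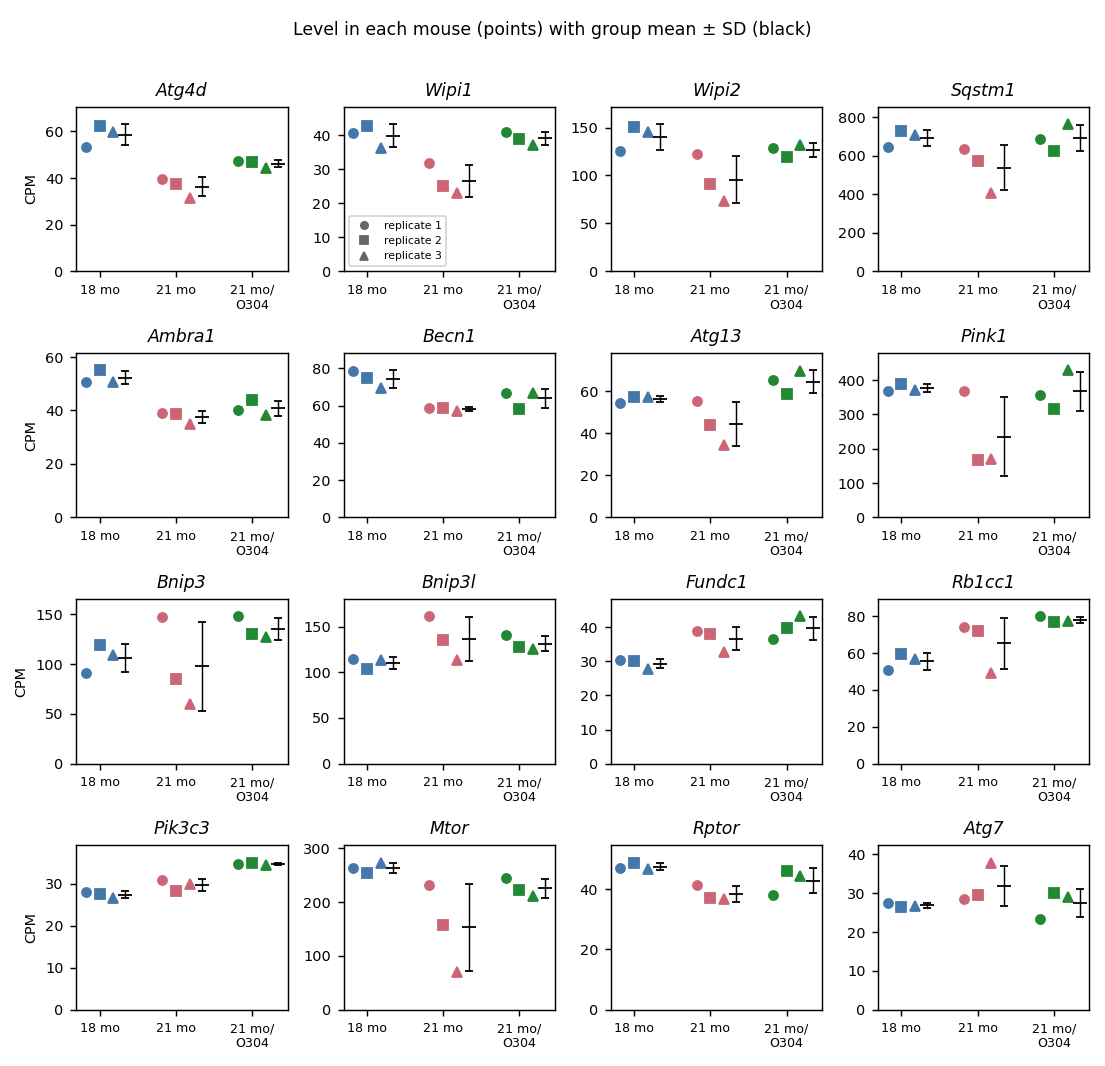
CPM of 16 named genes in each mouse (points, shaped by replicate number), with the group mean ± SD (n = 3) in black and each axis starting at 0. Atg4d and Pik3c3 separate the 3 groups, Becn1 and Ambra1 separate 18 mo from both older groups, and Pink1 and Mtor spread widely within the 21 mo group.

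Of the 5 cargo receptor genes, 4 were fitted lower in 21 mo than in 18 mo and 4 higher in 21 mo/O304 than in 21 mo. Sqstm1, which encodes p62, the receptor that binds ubiquitinated cargo, was at 648, 727 and 708 CPM in the 18 mo libraries, at 634, 575 and 406 CPM in the 21 mo libraries and at 689, 626 and 765 CPM in the 21 mo/O304 libraries. The 21 mo libraries were below the 18 mo libraries and overlapped the 21 mo/O304 libraries. For Sqstm1 edgeR gave log2 fold changes of −0.37 in 21 mo against 18 mo (SE 0.21, adjusted p = 0.287) and 0.37 in 21 mo/O304 against 21 mo (SE 0.21, adjusted p = 0.327). Sqstm1 stood at −0.0018 (SE 0.21, adjusted p = 0.999) in 21 mo/O304 against 18 mo by the same test. Nbr1, which encodes a receptor akin to p62, had 234, 182 and 115 CPM in the 21 mo replicates, against 206 to 217 CPM at 18 mo and 230.2 to 241 CPM with O304. Tax1bp1, whose product brings FIP200 to cargo, had −0.015, 0.31 and 0.30 in the 3 comparisons. Optn, the gene of optineurin, was the only member with an unadjusted p under 0.05 in the lower direction in 21 mo/O304 against 21 mo, at −0.46 (SE 0.18, adjusted p = 0.218, edgeR). It ran from 13.5 to 21.3 CPM at 21 mo and from 11.7 to 14.0 CPM with O304, which overlapped. Calcoco1, an endoplasmic reticulum cargo receptor gene, had −0.17 in 21 mo against 18 mo.

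The mitophagy genes differed from each other in which libraries were high or low. Pink1 encodes the kinase that labels damaged mitochondria for the ligase Parkin and was at 367, 389 and 371 CPM in the 18 mo libraries, at 368, 168 and 169 CPM in the 21 mo libraries and at 356, 315 and 428 CPM in the 21 mo/O304 libraries. Replicates 2 and 3 of the 21 mo group held less Pink1 than all other libraries, while replicate 1 was within the range of the 18 mo group. Pink1 levels were 376 ± 12.1 CPM for 18 mo, 235 ± 115 CPM for 21 mo and 367 ± 57.2 CPM for 21 mo/O304 (mean ± SD, n = 3 each). In edgeR, Pink1 had log2 fold changes of −0.68 in 21 mo against 18 mo (SE 0.30, adjusted p = 0.194) and 0.64 in 21 mo/O304 against 21 mo (SE 0.30, adjusted p = 0.259). Pink1 stood at −0.036 (SE 0.30, adjusted p = 0.986) in 21 mo/O304 against 18 mo by the same test. Bnip3, which encodes a mitophagy receptor induced by low oxygen, was at 90.6, 119 and 109 CPM in the 18 mo libraries, at 147, 85.1 and 60.2 CPM in the 21 mo libraries and at 148, 131 and 127 CPM in the 21 mo/O304 libraries. The 21 mo group enclosed all 18 mo values, and the 21 mo/O304 libraries lay above the 18 mo libraries. Bnip3 had edgeR log2 fold changes of −0.12 in 21 mo against 18 mo (SE 0.28, adjusted p = 0.809) and 0.47 in 21 mo/O304 against 21 mo (SE 0.28, adjusted p = 0.348). Bnip3 stood at 0.35 (SE 0.28, adjusted p = 0.740) in 21 mo/O304 against 18 mo by the same test.

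Bnip3l encodes NIX, the receptor that clears mitochondria from maturing red cells, and was at 115, 103 and 114 CPM in the 18 mo libraries, at 161, 136 and 114 CPM in the 21 mo libraries and at 141, 128 and 125 CPM in the 21 mo/O304 libraries. The 21 mo/O304 libraries were above the 18 mo libraries, and the 21 mo group overlapped both. The edgeR log2 fold changes of Bnip3l were 0.30 in 21 mo against 18 mo (SE 0.15, adjusted p = 0.224) and −0.059 in 21 mo/O304 against 21 mo (SE 0.15, adjusted p = 0.826). Bnip3l stood at 0.25 (SE 0.15, adjusted p = 0.634) in 21 mo/O304 against 18 mo by the same test. Fundc1 encodes an outer membrane receptor of mitophagy in low oxygen, lies on chromosome X from 17556564 to 17572325 (GRCm38) and was at 30.3, 30.1 and 27.7 CPM in the 18 mo libraries, at 39.0, 38.2 and 32.8 CPM in the 21 mo libraries and at 36.5, 39.8 and 43.2 CPM in the 21 mo/O304 libraries. All 6 libraries of the older groups were above the highest 18 mo library, and the 21 mo and 21 mo/O304 groups overlapped. Fundc1 had edgeR log2 fold changes of 0.32 in 21 mo against 18 mo (SE 0.12, adjusted p = 0.131) and 0.12 in 21 mo/O304 against 21 mo (SE 0.11, adjusted p = 0.544). Fundc1 stood at 0.44 (SE 0.12, adjusted p = 0.337) in 21 mo/O304 against 18 mo by the same test. It was the member with the smallest unadjusted p in 21 mo/O304 against 18 mo, 0.00418.

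Of the genes that control the machinery, Mtor and Rptor were lower in every 21 mo than in every 18 mo library. Mtor, which encodes the kinase of mTORC1, was at 264, 254 and 273 CPM in the 18 mo libraries, at 233, 157 and 70.5 CPM in the 21 mo libraries and at 245, 222 and 211 CPM in the 21 mo/O304 libraries. The 21 mo libraries ran from just below the 18 mo range in replicate 1 down to 70.5 CPM in replicate 3, and the 21 mo/O304 libraries lay below the 18 mo libraries and overlapped the 21 mo group. Group levels of Mtor were 264 ± 9.65 CPM for 18 mo, 153 ± 81.1 CPM for 21 mo and 226 ± 17.3 CPM for 21 mo/O304 (mean ± SD, n = 3 each). The edgeR log2 fold changes of Mtor were −0.78 in 21 mo against 18 mo (SE 0.35, adjusted p = 0.193) and 0.56 in 21 mo/O304 against 21 mo (SE 0.35, adjusted p = 0.358). Mtor stood at −0.22 (SE 0.34, adjusted p = 0.887) in 21 mo/O304 against 18 mo by the same test. That SE also takes in the spread of the 21 mo libraries, which share the fit. Rptor, which encodes the substrate-binding subunit RAPTOR, was at 47.1, 48.8 and 46.6 CPM in the 18 mo libraries, at 41.5, 36.9 and 36.8 CPM in the 21 mo libraries and at 38.0, 46.1 and 44.4 CPM in the 21 mo/O304 libraries. The 3 libraries of each older group were below the 18 mo libraries, and edgeR gave Rptor −0.31 in 21 mo against 18 mo (SE 0.11, adjusted p = 0.128) and 0.16 in 21 mo/O304 against 21 mo (SE 0.11, adjusted p = 0.404). The ratio of Mtor to Rptor on FPKM was 6.93 to 7.82 in the 18 mo libraries, 7.47, 5.67 and 2.55 in the 21 mo replicates and 6.32 to 8.57 in the 21 mo/O304 libraries, so replicate 3 of the 21 mo group stood lowest. Angptl7 overlaps Mtor but had at most 260 counts beside at least 1539 for Mtor. The transcription factor genes Tfeb and Tfe3 had −0.10 and 0.061 in 21 mo against 18 mo and −0.051 and −0.25 in 21 mo/O304 against 21 mo.

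Beyond these genes, 100 others of the pathway in 6 lists were tested in the same fit, and 0 of them passed the adjusted edgeR threshold in any comparison. Counts by an unadjusted p under 0.05 are to be read against all genes tested, of which 14.05% were higher and 12.03% lower with such a p in 21 mo against 18 mo, and 8.27% and 12.4% in 21 mo/O304 against 21 mo. Among 22 tested mitophagy genes outside the members, 17 were fitted lower in 21 mo than in 18 mo, 6 of them with an unadjusted p under 0.05 and 0 genes higher with one, or 27.3% lower beside 12.03% of all genes. The median log2 fold change was −0.34, beside 0.034 over all genes. In 21 mo/O304 against 21 mo, 17 of these 22 were fitted higher, with a median of 0.11. By the unadjusted p 2 were higher and 0 lower there, or 9.09% higher, near the 8.27% of all genes. Set against 18 mo, 14 of the 22 were still fitted lower in 21 mo/O304. Of these, 5 had an unadjusted p under 0.05, or 22.7% beside 5.33% of all genes, and 0 genes were higher with one. Rhot2, which encodes the mitochondrial transport protein MIRO2 that PINK1 and Parkin target, was at 46.5, 50.5 and 48.2 CPM in the 18 mo libraries, 36.5, 27.8 and 21.5 CPM in the 21 mo libraries and 42.0, 37.7 and 36.5 CPM in the 21 mo/O304 libraries. Its 21 mo libraries were the lowest, though replicate 1 was level with replicate 3 of the 21 mo/O304 group to the digits given, and edgeR gave −0.76 (SE 0.18, adjusted p = 0.0697) in 21 mo against 18 mo and 0.44 (SE 0.18, adjusted p = 0.215) in 21 mo/O304 against 21 mo. Fkbp8, a receptor gene of mitophagy, was at 259, 264 and 253 CPM in the 18 mo libraries, 202, 165 and 175 CPM in the 21 mo libraries and 186, 187 and 226 CPM in the 21 mo/O304 libraries. By edgeR it had −0.52 (SE 0.14, adjusted p = 0.0848) in 21 mo against 18 mo and −0.37 (SE 0.14, adjusted p = 0.460) in 21 mo/O304 against 18 mo.

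Of 27 mTORC1 subunits and regulators outside the members, 7 were lower and 4 higher in 21 mo than in 18 mo by an unadjusted p under 0.05, or 25.9% and 14.8% beside 12.03% and 14.05% of all genes. Lamtor2, whose product belongs to the Ragulator complex that docks mTORC1 on lysosomes, was at 99.7, 88.7 and 84.7 CPM in the 18 mo libraries, 61.6, 45.0 and 45.3 CPM in the 21 mo libraries and 66.9, 59.0 and 84.9 CPM in the 21 mo/O304 libraries. Its 18 mo libraries were above all 21 mo libraries, with an edgeR log2 fold change of −0.85 (SE 0.18, adjusted p = 0.0626). Akt1s1, the gene of the mTORC1 inhibitor PRAS40, had −0.58 (SE 0.13, adjusted p = 0.0686) in the same comparison and test. With O304, 4 of these 27 were higher and 2 lower than in 21 mo by the unadjusted p, or 14.8% and 7.41% beside 8.27% and 12.4% of all genes. Among them, Lamtor3 had −0.28 (SE 0.09, adjusted p = 0.182) and Lamtor2 0.47 (SE 0.18, adjusted p = 0.199) by edgeR. Among 11 transcription factors that act on autophagy genes, 3 were higher and 0 lower in 21 mo against 18 mo by an unadjusted p under 0.05, beside 14.05% and 12.03% of all genes. In 21 mo/O304 against 21 mo, 1 of these 11 was higher and 4 lower, beside 8.27% and 12.4% of all genes. Nfe2l2, which encodes NRF2, the oxidative stress factor that also acts on Sqstm1, was at 91.8, 89.2 and 86.6 CPM in the 18 mo libraries, 115, 164 and 167 CPM in the 21 mo libraries and 96.5, 101 and 109 CPM in the 21 mo/O304 libraries. All its 21 mo libraries were above both other groups, with edgeR values of 0.74 (SE 0.16, adjusted p = 0.0626) in 21 mo against 18 mo and −0.54 (SE 0.15, adjusted p = 0.175) in 21 mo/O304 against 21 mo. Hif1a, the gene of the low-oxygen factor that acts on Bnip3, had 0.72 (SE 0.16, adjusted p = 0.0672) in 21 mo against 18 mo, and Atf4, of the integrated stress response, had −0.64 (SE 0.18, adjusted p = 0.175) in 21 mo/O304 against 21 mo, both by edgeR.

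The remaining 3 lists were of other core, fusion and receptor genes. Of 12 other core genes, 2 were higher and 2 lower in 21 mo against 18 mo by an unadjusted p under 0.05, or 16.7% each way, near the 14.05% and 12.03% of all genes. The higher genes included Vmp1, which encodes a scramblase at the contact of endoplasmic reticulum and autophagosome, at 0.55 (SE 0.17, adjusted p = 0.103), and the lower genes included Nrbf2, of the ATG14 complex, at −0.65 (SE 0.19, adjusted p = 0.0905) by edgeR. In 21 mo/O304 against 21 mo, 1 of the 12 was higher and 1 lower by the unadjusted p, or 8.33% each way, beside 8.27% and 12.4% of all genes. Wdr45, which encodes WIPI4, had 0.58 (SE 0.17, adjusted p = 0.175) there by the same test. Wdr45b, of the same list, had −0.28 (SE 0.11, adjusted p = 0.209) there and −0.29 (SE 0.11, adjusted p = 0.459) in 21 mo/O304 against 18 mo by edgeR. Of 17 genes for fusion of autophagosomes with lysosomes, 4 were lower and 0 higher in 21 mo against 18 mo by the unadjusted p, beside 12.03% and 14.05% of all genes. The fusion protein gene Vamp8 was among them, at 179, 178 and 158 CPM in the 18 mo libraries, 134, 108 and 115 CPM in the 21 mo libraries and 128, 111 and 150.1 CPM in the 21 mo/O304 libraries, with edgeR values of −0.52 (SE 0.15, adjusted p = 0.0898) in 21 mo against 18 mo and −0.41 (SE 0.15, adjusted p = 0.459) in 21 mo/O304 against 18 mo. Of 11 other cargo receptor genes tested, 1 was higher and 1 lower in 21 mo against 18 mo by the unadjusted p, or 9.09% each way, below the 14.05% and 12.03% of all genes. The higher gene was Irgm1, an interferon-induced GTPase gene, at 0.97 (SE 0.24, adjusted p = 0.0760), and the lower was Tex264, a receptor gene for endoplasmic reticulum, at −0.48 (SE 0.15, adjusted p = 0.103), both by edgeR. Irgm1 was at 41.4, 44.3 and 45.9 CPM in the 18 mo libraries, 60.8, 109.8 and 87.1 CPM in the 21 mo libraries and 45.4, 72.1 and 46.9 CPM in the 21 mo/O304 libraries. The macrophage marker sums of the 21 mo replicates were 371, 401 and 1154 CPM in the same order, and a link was not tested.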

How the data were processed

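Kidney RNA of 9 mice was sequenced (1 library per mouse, 3 mice per group, not pooled). Per the labels, reads were aligned with HISAT2 2.0.5 and counted with featureCounts 1.5.0-p3, and the builds named are GRCm38 and mm10. The counts deposited are whole numbers without normalization, and the FPKM values deposited were computed by the authors from counts and gene lengths. The table also holds the authors' group means, fold changes and p-values from DESeq2 1.20.0, which were not used. Strandedness and the handling of reads with several matches are not given in the sources used here. For 24 of the 47 genes another annotated gene overlaps, so their counts may be shared. As for Atg4b, the overlapping gene had more counts on average than the member's lowest library for Rubcn, Atg9a and Atg16l2. The mean counts were 928 for Fyttd1, 467 for Ankzf1 and 343 for Fchsd2, beside lowest counts of 551, 356 and 72.

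Genes were filtered with edgeR's filterByExpr (minimum count 10, minimum total 15), which left 15902. Libraries of 15636378 to 18396725 counts were normalized by TMM and fitted with 3 group means (edgeR 4.0.16, R 4.3.3, 6 residual degrees of freedom). Tests were two-sided and adjusted by the Benjamini-Hochberg method over all genes tested, with a threshold of 0.05. p-values measure the spread between these mice. Log2 CPM of single libraries used a prior count of 2.

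The alternatives were DESeq2 1.42.0, RLE and upper-quartile normalization, no or a stricter filter on counts, a fit to just the 6 libraries in question, a block for the replicate number, voom with sample quality weights (limma 3.58.1), limma-trend on log2(FPKM + 1) for a mean FPKM of at least 0.5, and leaving out each library. voom without weights was added after the data were seen. The members and lists were chosen with earlier results of these data known. Library values are given for the 5 members with the smallest p in each comparison, for Sqstm1 and Mtor, whose proteins the study assayed, and for Pink1, Bnip3, Bnip3l and Fundc1. For other pathway lists, the 2 genes with the smallest p per comparison were the pool to draw on. Wipi2, Atg7 and Rptor are given library by library beyond this rule, chosen after their values were seen. The same holds for Nbr1 and Atg9a in the 21 mo libraries and for Atg14 in replicate 3 of that group. The single values of 5 of the 47 genes are not reported here, though counts and medians over the members include them. Sequences were not analysed here. On simulated counts with 200 genes changed 4-fold for 21 mo against 18 mo, edgeR recovered 72% among 15647 genes with 4.64% false calls, and DESeq2 87.5% among 15893 with 18.6%. Voom with sample quality weights recovered 72% with 3.36% false calls. The simulation gave the 3 groups the same spread per gene and planted changes larger than any fitted for a member. These rates therefore do not carry over to the real groups, whose spread was unequal.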

Additional observations from a re-analysis of the deposited data

How the results depend on the processing

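The median of the 47 genes stayed below 0 in 21 mo against 18 mo and above 0 in 21 mo/O304 against 21 mo in all 19 alternatives, while single genes changed sign and the number of calls moved. At least 1 alternative turned the sign of 14 of the 47 members in 21 mo against 18 mo, 12 in 21 mo/O304 against 21 mo and 13 in 21 mo/O304 against 18 mo. Leaving out 1 library at a time, the median log2 fold change of the members ran from −0.18 to −0.054 in 21 mo against 18 mo, from 0.089 to 0.21 in 21 mo/O304 against 21 mo and from −0.016 to 0.046 in 21 mo/O304 against 18 mo, the last with a change of sign. That last median, −0.0018, was 0.020 under upper-quartile normalization, 0.0064 with every gene of at least 1 count and 0.015 under voom with weights. In the same fits and comparison Sqstm1 was at 0.020 and 0.0064 under the first and second of these, and Wipi1 at 0.015 under voom with weights.

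In 21 mo against 18 mo, 3 of all genes passed by edgeR, beside 2023 by DESeq2, 576 with every gene of at least 1 count, 8409 by voom with weights, 1 by voom without weights (added after seeing the data), 0 with only the 6 libraries and 0 with the replicate block. Leaving out 1 library gave 0 to 4186 genes. Of the members, 5 were called lower by DESeq2, 2 with every gene of at least 1 count, 18 by voom with weights (and 5 higher), and 0 to 9 without 1 library. By an unadjusted p, voom with weights gave 6 higher and 22 lower, upper-quartile normalization gave 2 higher, and leaving out 1 library gave 0 to 3 higher and 5 to 16 lower. In that voom fit 26.3% of all genes were higher and 26.6% lower even by the adjusted threshold. Shares of all genes by the unadjusted p are not given for these fits, so the counts are not a result about the members.

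In 21 mo/O304 against 21 mo, 0 of all genes passed by edgeR, beside 896 by DESeq2, 17 with every gene of at least 1 count, 6528 by voom with weights and 0 to 3808 without 1 library. Of the members, DESeq2 called 2 higher, voom with weights 16 higher and 2 lower, and the fits without 1 library 0 to 12 higher and 0 to 2 lower. By an unadjusted p, voom with weights gave 20 higher and 3 lower, the fits without 1 library 3 to 17 higher and 0 to 2 lower, and Optn was not below 0.05 with only the 6 libraries or the replicate block, which left 0 lower. In that voom fit 21.2% of all genes were higher and 19.8% lower even by the adjusted threshold. In 21 mo/O304 against 18 mo, the table held 118 genes past the threshold by DESeq2, 415 by voom with weights, 22 with only the 6 libraries and 0 to 12 without 1 library. Voom with weights called 3 members higher and 1 lower. By an unadjusted p it gave 10 higher and 5 lower, the 6 libraries gave 7 higher and 5 lower, and the fits without 1 library gave 2 to 4 higher and 1 to 4 lower. Here too the shares of all genes by that p are not given, so these counts show only a change with the fit. The cause of these changes was not tested.

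Rubcnl, at low counts, went from 0.73 to −0.46 in 21 mo against 18 mo and from −0.58 to 0.52 in 21 mo/O304 against 21 mo under voom with weights. Without 1 library Bnip3 ran from −0.53 to 0.11 in 21 mo against 18 mo and Bnip3l from −0.17 to 0.068 in 21 mo/O304 against 21 mo. In 21 mo/O304 against 18 mo the same ranges were −0.064 to 0.074 for Sqstm1, −0.15 to 0.069 for Pink1 and −0.088 to 0.022 for Wipi1. Libraries with the same replicate number had correlations of their deviations from −0.13 to 0.17, beside −0.26 to 0.20 for other numbers, so the numbers were not taken as pairs. The replicate block called 0 members in any comparison. RLE and upper-quartile scaling moved the median of all genes by less than 0.1 on the log2 scale. With 3 mice per group, the standard errors of the members' log2 fold changes ran from 0.09 to 0.45, which limits what could be detected.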
